A study of Mus musculus with 12 samples.

Results

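The 9 genes described here, Marcksl1, Gap43, Stmn1, Stmn2, Dpysl3, Dpysl5, Dcx, Sox4 and Sox11, are known from growing axons and immature neurons. They were chosen by symbol from a table of 21937 genes, and each symbol matched 1 row. The RNA came from light membranes purified from brain so as to enrich myelin, the sheath that oligodendrocytes wrap around axons. All samples came from male wild-type mice of the inbred strain c57Bl6/N. They were taken at 4 ages, with 3 samples each: postnatal day 18 (P18), when myelination is active, postnatal day 75 (P75), 6 months and 24 months. Samples of an age carry numbers, but no label says whether they are separate animals or pools, so a p-value covers only the spread among these 12 samples, which may be technical. The fraction is a purified membrane preparation and not a cell type, so its RNA can come from any cell whose membranes enter it.

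A growth cone is the motile tip of a growing axon, where actin filaments push the membrane forward and microtubules follow. Marcksl1 and Gap43 encode proteins of the inner membrane face that bind calmodulin and actin-linked lipids and are substrates of protein kinase C. Stathmins (Stmn1, Stmn2) bind tubulin and loosen microtubules, collapsin response mediator proteins (Dpysl3, Dpysl5) link guidance cues to the cytoskeleton, and doublecortin (Dcx) stabilises the microtubules of migrating neurons. Sox4 and Sox11 are SoxC transcription factors that switch on neuronal differentiation genes. Some of the 9, among them Stmn1, Dpysl3, Sox4 and Sox11, are also known from oligodendrocyte precursors, so none of those named here alone marks a neuron.

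The RefSeq promoter table matched 5 of the 9 genes by symbol. Promoter sequences are shown for 3 members with separate courses over age in the main analysis. They are Marcksl1, with the deepest fall of the 9, Dpysl5, which fell, rose and fell again, and Sox11, which fell at the first 2 steps. Some of these calls were lost in alternative analyses, as given below. Each sequence is the 250 bases before the RefSeq start of the gene in build GRCm38.p6, written in the direction of transcription. The sequences span chr4:129513331-129513580 on the + strand for Marcksl1, chr5:30711314-30711563 on the + strand for Dpysl5 and chr12:27342719-27342968 on the - strand for Sox11. Capitals mark matches on either strand to an E-box (CANNTG), the core site of neurogenic basic helix-loop-helix factors, or to a SOX core (ACAAAG or ACAATG). The 2 motifs do not overlap in these windows.
Marcksl1: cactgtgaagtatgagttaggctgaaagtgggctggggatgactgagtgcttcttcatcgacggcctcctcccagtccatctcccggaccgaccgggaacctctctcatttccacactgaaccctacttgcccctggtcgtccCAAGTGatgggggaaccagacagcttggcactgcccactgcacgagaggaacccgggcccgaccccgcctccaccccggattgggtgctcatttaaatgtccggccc
Dpysl5: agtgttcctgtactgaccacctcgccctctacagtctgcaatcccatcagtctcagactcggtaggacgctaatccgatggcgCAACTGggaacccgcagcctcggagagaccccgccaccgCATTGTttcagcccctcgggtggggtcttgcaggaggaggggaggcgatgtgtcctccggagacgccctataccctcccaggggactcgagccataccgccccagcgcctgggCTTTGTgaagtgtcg
Sox11: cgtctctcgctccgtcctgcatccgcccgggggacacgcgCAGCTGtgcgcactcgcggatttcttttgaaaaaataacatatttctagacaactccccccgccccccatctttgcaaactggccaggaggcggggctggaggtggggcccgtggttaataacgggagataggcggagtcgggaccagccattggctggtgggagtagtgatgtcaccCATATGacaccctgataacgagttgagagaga
The Marcksl1 window held 1 E-box, the Dpysl5 window 1 E-box and 2 SOX cores, and the Sox11 window 2 E-boxes. Of 32851 RefSeq promoter windows of this length, 66.2% held an E-box and 25.2% a SOX core, so single matches are common. A match is a description of the letters and not a binding site. The windows had a GC content of 60.4% for Marcksl1, 62.8% for Dpysl5 and 58% for Sox11, beside a median of 52.4% over all windows.

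The samples held 20299052 to 27214385 recovered reads and 16949 to 17261 detected genes, and 14987 genes were tested. Values are normalised read counts, which the authors scaled by 1 size factor per sample. On the first principal component (57.9% of the variance) P18, P75 and the later ages lay apart, while the 6- and 24-month samples overlapped. On the second (17.3%) P18 (16 to 19.8) and 6 months (17.2 to 29.2) lay above P75 (-37.9 to -21.2) and 24 months (-18.97 to -6.9), an order that was not that of age. P18 replicate 3 stood apart on the third (5.83%), at -24.3 beside 3.59 and -0.61 in the other P18 samples. All 9 genes had values above the filter of 10 in every sample, so the filter removed none, and all 9 differed at some age (limma moderated F test, adjusted p from 1.49e-13 for Marcksl1 to 0.00108 for Stmn1), as did 77.4% of the genes tested. Beside an age-wide share that high, passing this test says little about the 9.

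**Figure D1:**
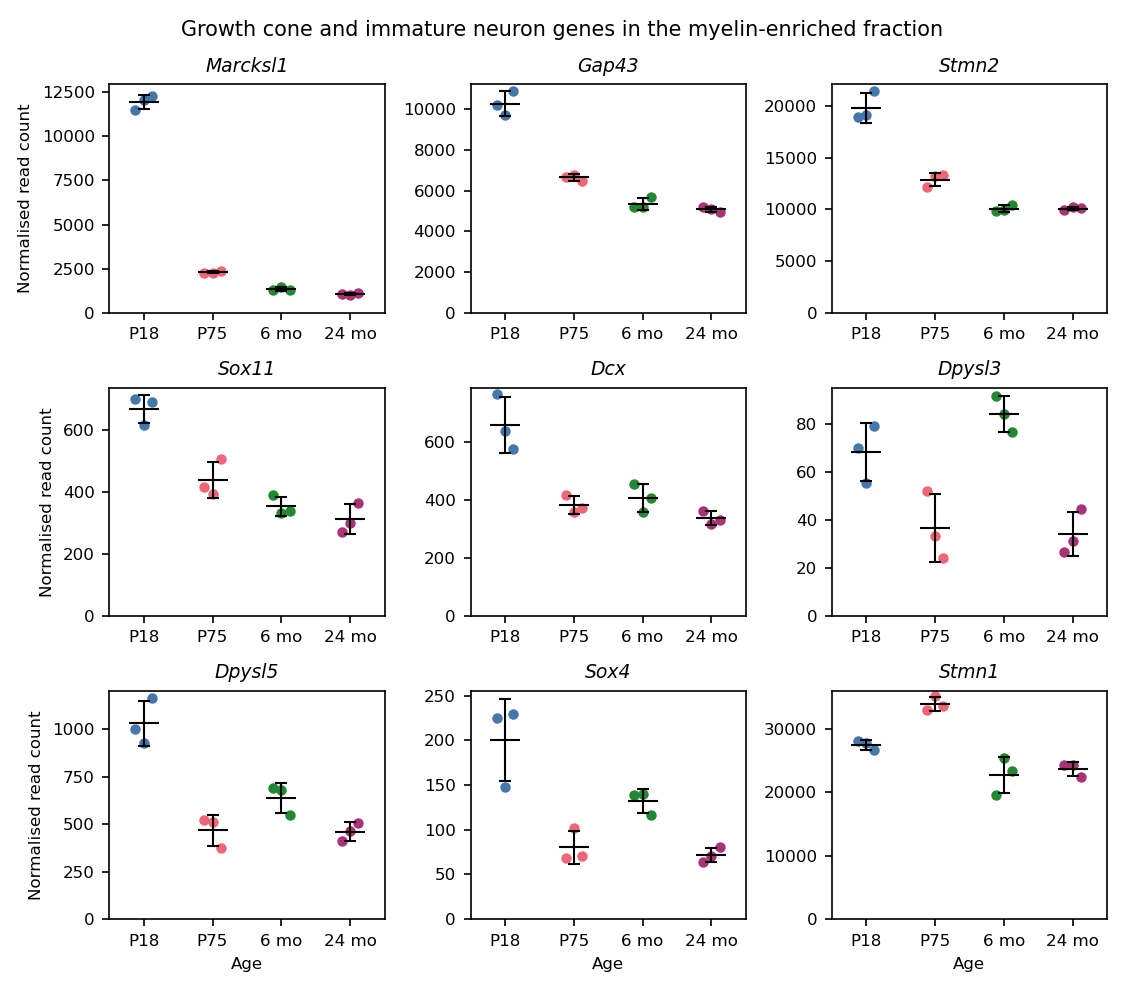
Normalised read count (y axis, linear from 0) of the 9 genes in each sample at P18, P75, 6 months (6 mo) and 24 months (24 mo). Points are samples and bars give the mean and SD of 3 samples. Marcksl1 has a mean of 1069 at 24 months, against 11962 at P18. Dpysl3, Dpysl5 and Sox4 are higher at 6 months than at P75 and 24 months, with Dpysl5 and Sox4 still below P18.

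Between P18 and P75, which sets the young adult against active myelination, 8 of the 9 genes fell and Stmn1 rose. In the background 18.7% of the genes tested fell, 21.7% rose and 40.4% passed in either direction. The P75 samples of those 8 all lay below the P18 samples, as for 22.4% of genes, and those of Stmn1 all above, as for 24.7%. The median difference of the 9 was -0.78 on the log2 scale, beside 0.017 over all genes tested. All differences are of log2(value + 1), later minus earlier age, with a standard error (SE), and were tested with limma with Benjamini-Hochberg adjustment over 14987 genes at a threshold of 0.05. The fall of 8 members was called in each of 23 alternative analyses. In a bulk fraction, less RNA from each cell and fewer contributing cells or processes cannot be told apart.

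Of the membrane-linked proteins, Marcksl1 had the deepest fall of the 9 at P75. It had 11509.7, 12062 and 12315 normalised counts in the P18 samples, 2258, 2269.7 and 2375 at P75, 1290.1, 1481 and 1283 at 6 months, and 1063, 1013 and 1130.2 at 24 months. Every age was lower than the age before it, without overlap at any step. The log2 difference was -2.38 ± 0.081 at P75 against P18 (adjusted p = 2.08e-11), and 11 of the 14987 genes tested had a lower one. It was -0.77 at 6 months against P75 (adjusted p = 1.76e-06) and -0.34 at 24 months against 6 months (adjusted p = 0.0107). The last call was lost without 6 months replicate 2 (adjusted p = 0.0589), without 24 months replicate 2 (0.0613) or with values centred on mature neuron genes (0.191), with a range of 0.00162 to 0.191 over the alternatives. Against P18, Marcksl1 at 24 months stood at 8.93% of its level, a log2 difference of -3.48, and 68.2% of that log2 change was in place by P75. Its pseudogene Marcksl1-ps4 reached at most 1.19 counts in the table.

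Gap43, the classical growth cone protein, had 10201, 9714 and 10918 counts in the P18 samples, 6688, 6775 and 6469 at P75, 5175, 5181 and 5701 at 6 months of age and 5215, 5077 and 4959 at 24 months. P18, P75 and 6 months did not overlap, while 6 and 24 months did. Gap43 fell by 0.63 ± 0.082 at P75 against P18 (adjusted p = 2.56e-05) and by 0.31 at 6 months against P75 (adjusted p = 0.00454). The difference at 24 months against 6 months was -0.07 and did not pass (adjusted p = 0.566). Its 24-month mean was 49.5% of the P18 mean.

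The stathmins parted. Stmn2, which palmitoylation anchors to membranes of the growth cone, had 18913, 19086 and 21499 counts in the P18 samples, 12198, 13181 and 13286 at P75, 9845, 9912 and 10428 at 6 months of age and 9913, 10193 and 10124 at 24 months. The 6- and 24-month samples overlapped and all lay below P75, which lay below P18. It fell by 0.62 ± 0.092 at P75 (adjusted p = 7.35e-05) and by 0.36 at 6 months against P75 (adjusted p = 0.00392), and at 24 months against 6 months its difference was 0.0025 (adjusted p = 0.989).

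Stmn1, the soluble and widely expressed stathmin, had 28067, 27715 and 26611 counts in the P18 samples, 33002, 35183 and 33597 at P75, 19603, 25322 and 23267 at 6 months of age and 24229, 24353 and 22389.9 at 24 months. The P75 samples lay above those of every other age, and 6 and 24 months overlapped. Its rise at P75 against P18 (0.30 ± 0.12, adjusted p = 0.0479) was at the threshold and was lost in 17 of 23 alternatives, where adjusted p reached 0.658 after quantile normalization. Its fall at 6 months against P75 (-0.59, adjusted p = 0.000577) was called in all 23. The step to 24 months had a difference of 0.06 (adjusted p = 0.739), and against P18 the 24-month level had a difference of -0.22 that did not pass (adjusted p = 0.119).

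The collapsin response mediator genes and Sox4 followed another course. Dpysl5 had 1004, 929.9 and 1163 counts in the P18 samples, 521, 512 and 375 at P75, 691, 678 and 548 at 6 months of age and 409, 462 and 508 at 24 months. P18 lay above all other ages, and 6 months lay above P75 and 24 months, which overlapped. It fell by 1.15 ± 0.14 at P75 against P18 (adjusted p = 1.02e-05), rose by 0.45 at 6 months against P75 (adjusted p = 0.01; -0.16 when centred on mature neuron genes) and fell by 0.47 at 24 months against 6 months (adjusted p = 0.0243). The 6-month rise did not pass without P75 replicate 3 (adjusted p = 0.0673). The 24-month fall did not pass without 6 months replicate 1 (0.101) or 2 (0.0881), without 24 months replicate 1 (0.101) or 2 (0.0694), or when centred on mature neuron genes (0.0535), with a range over the alternatives of 0.00758 to 0.101.

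Dpysl3 was the scarcest member, with 70.1, 55.4 and 79.35 counts in the P18 samples, 52.1, 33.4 and 24.3 at P75, 91.8, 84.3 and 76.9 at 6 months of age and 26.8, 31.4 and 44.4 at 24 months. The P18 and 6-month samples overlapped each other and lay above the P75 and 24-month samples. Dpysl3 fell by 0.93 ± 0.25 at P75 (adjusted p = 0.00728), rose by 1.25 at 6 months against P75 (adjusted p = 0.000616) and fell by 1.31 at 24 months against 6 months (adjusted p = 0.00329). These 3 calls held in all 23 alternatives, including the centring on mature neuron genes, where the rise was 0.63.

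Sox4 had 225, 148 and 229 counts in the P18 samples, 68.1, 102 and 70.8 at P75, 139, 140.2 and 117 at 6 months of age and 64.4, 70.3 and 80.5 at 24 months. Again 6 months lay above P75 and 24 months, and below P18. It fell by 1.31 ± 0.19 at P75 against P18 (adjusted p = 5.79e-05), rose by 0.73 at 6 months against P75 (adjusted p = 0.00392; 0.11 and not passed at 0.583 when centred on mature neuron genes) and fell by 0.87 at 24 months against 6 months (adjusted p = 0.00621). A long non-coding RNA gene, Gm26735, overlaps the single Sox4 exon on the opposite strand over 2616 bases in the GRCm38 annotation. The strand setting of the counting is not given in the sources used here, so reads of the 2 genes cannot be told apart and the Sox4 level is uncertain.

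Dpysl3, Dpysl5 and Sox4 thus passed at 3 successive steps, lower at P75, higher at 6 months and lower at 24 months, and 3.43% of the genes tested passed in that order. Neighbouring steps have the middle age in common and are therefore not independent. The second principal component given above likewise held P18 and 6 months apart from P75 and 24 months, though the order of the ages within each pair was not the same. What that component records was not tested.

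Sox11, the other SoxC factor here, had 698, 616 and 689 counts in the P18 samples, 415, 393 and 504 at P75, 388, 331 and 339 at 6 months of age and 270.45, 301 and 365 at 24 months. P18 lay above the other ages, P75 lay just above 6 months, and 6 and 24 months overlapped. It fell by 0.61 ± 0.12 at P75 against P18 (adjusted p = 0.000881). The difference of -0.30 at 6 months against P75 was at the threshold (adjusted p = 0.0469) and was lost in 9 of 23 alternatives, with 0.217 without P75 replicate 3 as the highest adjusted p. Its difference at 24 months against 6 months was -0.18 (adjusted p = 0.304).

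Dcx, the standard marker of migrating neuroblasts, had 763, 635 and 575 counts in the P18 samples, 417, 357 and 371 at P75, 454, 358 and 405 at 6 months of age and 363, 316 and 329.5 at 24 months. P18 lay above the later ages, which overlapped in part. It fell by 0.78 ± 0.12 at P75 against P18 (adjusted p = 9.78e-05). The later steps did not pass, with 0.08 at 6 months against P75 (adjusted p = 0.576) and -0.27 at 24 months against 6 months (adjusted p = 0.122). Dcx was still counted in every 24-month sample, at 51.1% of its P18 mean.

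**Figure D2:**
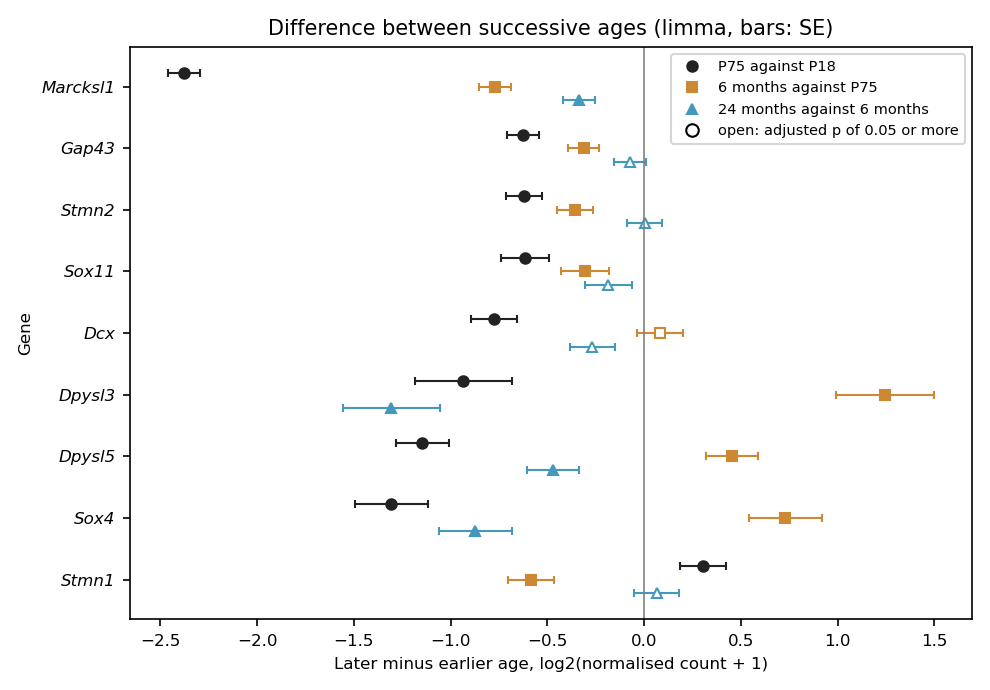
Differences of log2(normalised count + 1) between successive ages, later minus earlier (x axis), for the 9 genes (rows), with SE from limma. Filled symbols passed at an adjusted p under 0.05. The black circles of 8 genes lie left of 0, from -2.38 for Marcksl1 to -0.61 for Sox11, and that of Stmn1 lies at 0.30, while the filled orange squares of Dpysl3, Dpysl5 and Sox4 lie to the right of 0.

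Across the later steps the counts were read against the background in the same way. At 6 months against P75, 3 members rose, 5 fell and Dcx did not pass, where 27.1% of the genes tested rose, 25.4% fell and 52.4% passed. The same 8 genes were those without overlap, 3 higher (31.7% of genes) and 5 lower (30.6%). At 24 months against 6 months, Marcksl1, Dpysl3, Dpysl5 and Sox4 fell, 0 rose and 5 did not pass, where 8.34% of genes fell, 10.8% rose and 19.2% passed. Samples of the 2 ages did not overlap in these 4, all lower (19.9% of genes), and 0 members were higher without overlap (23.2%). Over the whole span, 24 months against P18, 8 fell and Stmn1 did not pass, where 30.5% fell, 32% rose and 62.5% passed. The 24-month samples lay below the P18 samples without overlap in all 9 (32.8% of genes) and above in 0 (33.2%). The 24-month means of the 8 ranged from 8.93% of P18 in Marcksl1 and 35.8% in Sox4 to 51.1% in Dcx.

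Per kilobase of annotated exon, the members fell into abundant and scarce genes. The length of a gene was that of the merged exons of all its annotated transcripts. At P18 the mean normalised count per kilobase was 14290 for Stmn1, 7453 for Marcksl1, 6748 for Gap43 and 3540 for Stmn2, while it was 140 for Dpysl5, 80.3 for Sox11, 52 for Dcx, 41.8 for Sox4 and 10.3 for Dpysl3. The order depends on these lengths. Stmn2, with 5.602 kilobases beside 1.605 for Marcksl1 and 1.523 for Gap43, ranked below both. Its mean count at P18 was higher, at 19833 beside 11962 and 10278. By 24 months Marcksl1 had a level of 666 per kilobase, below Gap43 at 3338 and Stmn2 at 1799. Together the 9 made up 0.295 ± 0.0323% of the normalised counts of a P18 sample, 0.254 ± 0.00937% of a P75 sample, 0.181 ± 0.00822% of a 6-month sample and 0.176 ± 0.00264% of a 24-month sample (SD, n = 3). Stmn1 made up 38.1% of that sum at P18 and 59.3% at P75, and Marcksl1 made up 16.6%, 4.03%, 3.29% and 2.60% at the successive ages. Set against the summed mature neuron genes, the 9 stood at 26.2%, 19.0%, 11.6% and 12.4%.

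Ratios within a sample do not depend on its scaling, so 6 pairs of related genes were compared by their log2 ratio over the 4 ages. The pairs were chosen after the values were seen, and the test was an exact permutation of the one-way F statistic over 15400 partitions, whose smallest p is 6.49e-05, adjusted over the 6 pairs. Marcksl1 to Marcks, its larger relative, had mean ratios of 0.942, 0.303, 0.250 and 0.189 at P18, P75, 6 months and 24 months (adjusted p = 0.000779). In counts, which are not corrected for length, the 2 genes were near equal at P18. Per kilobase of exon Marcksl1 was higher there, at 7453 beside 3167 for Marcks. Marcksl1 was lower at every later age, in counts and per kilobase. Stmn1 to Stmn2 had 1.39, 2.63, 2.26 and 2.35 (adjusted p = 0.00623). The P18 samples were at most 1.48 and the later samples at least 1.99.

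Sox4 to Sox11 had mean ratios of 0.298, 0.188, 0.375 and 0.231 (adjusted p = 0.0145), and Dpysl3 to Dpysl5 had 0.0659, 0.0767, 0.132 and 0.0736 (adjusted p = 0.0185). Both were highest at 6 months, where the ratios of each pair lay above those of all other samples. They were 0.345 to 0.424 for Sox4 to Sox11 and 0.124 to 0.140 for Dpysl3 to Dpysl5. The Sox4 ratios share the uncertainty of the Sox4 level given above. Dcx to Dclk1, its kinase-bearing relative, had 0.0532, 0.0409, 0.0371 and 0.0411 (adjusted p = 0.0492), a call that was lost without any 1 of 9 of the 12 samples, with adjusted p up to 0.0894. Gap43 to Basp1, another membrane protein of the growth cone, had 0.619, 0.636, 0.765 and 0.736 and did not pass (adjusted p = 0.0636), though it passed without P18 replicate 2 (0.0288) or replicate 3 (0.0338).

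**Figure D3:**
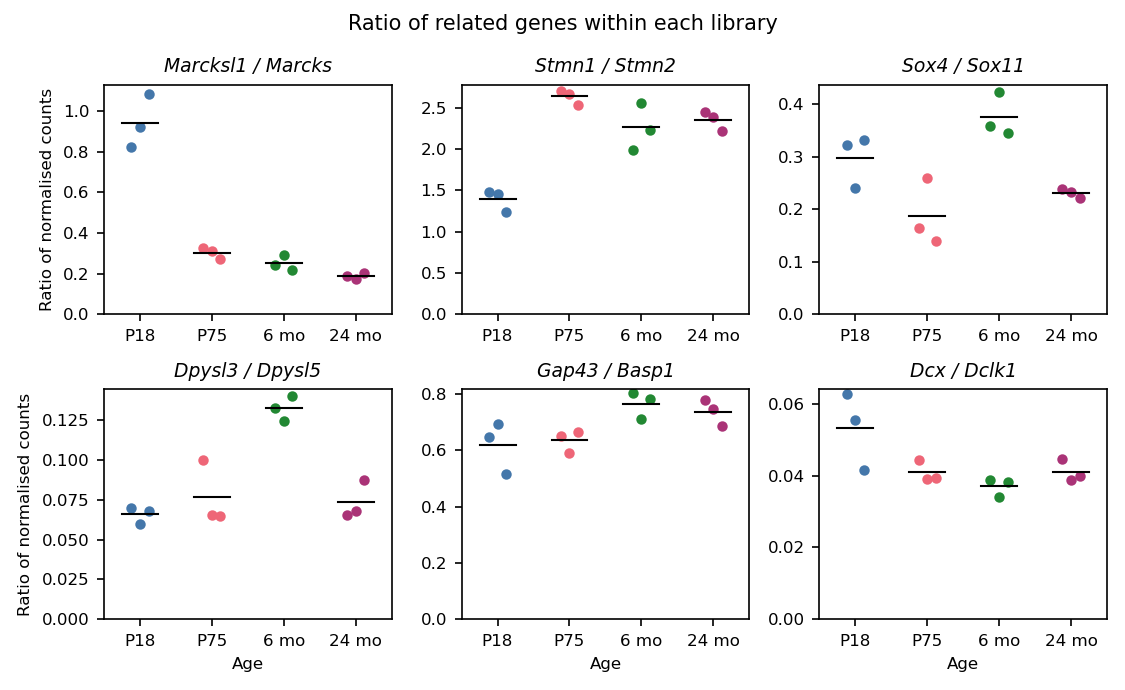
Ratio of normalised counts of 6 pairs of related genes (y axes, linear from 0) in each sample by age, with bars at the mean of 3 samples. Marcksl1 to Marcks is lower at P75 (mean 0.303, against 0.942 at P18), Stmn1 to Stmn2 is higher (2.63, against 1.39), and Dpysl3 to Dpysl5 peaks at 6 months (0.132).

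The 11 relatives of the 9 genes gave the family context. At P75 against P18, 9 of the 11 fell, 0 rose and Dclk3 and Stmn4 did not pass, with a median of -0.58. Of all genes tested, 18.7% fell and 21.7% rose. Marcks fell to 7667 ± 1002 counts at P75, against 12821 ± 1337 at P18 (SD, n = 3; -0.74, adjusted p = 5.59e-05), and Basp1 fell by 0.68. Dpysl4 (-0.91), Sox12 (-0.84), Dclk2 (-0.73), Crmp1 (-0.57), Dclk1 (-0.42), Stmn3 (-0.36) and Dpysl2 (-0.26) were also lower. Dclk3 had 0.05 (adjusted p = 0.646) and the neuronal stathmin Stmn4 had -0.15 (adjusted p = 0.149).

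At 6 months against P75, where 25.4% of the genes tested fell and 27.1% rose, 2 relatives fell, Marcks (-0.49) and Basp1 (-0.58). A further 7 did not pass. Crmp1 (0.39) and Dclk2 (0.40) rose, but had -0.23 and -0.22 when centred on mature neuron genes. At 24 months against 6 months, Crmp1 (-0.40), Dclk1 (-0.41) and Dclk2 (-0.43) fell and 8 did not pass, where 8.34% of genes fell. Under the centring on mature neuron genes 0 relatives fell. Crmp1, another collapsin response mediator, averaged 4361 ± 480 counts in P18 samples, 2930 ± 356 in P75 samples, 3813 ± 134 in 6-month samples and 2884 ± 99.2 in 24-month samples (SD, n = 3). Like Dpysl3 and Dpysl5 it was lower at P75, higher at 6 months and lower at 24 months, whereas Dpysl2, the most abundant of the family by counts per kilobase at P18, did not pass at either later step.

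A list of 42 growth cone and axon outgrowth genes did not move one way. At P75 against P18, 13 rose (31%), 17 fell (40.5%) and 12 did not pass, with a median of -0.23. The shares over all genes tested were 21.7% and 18.7%. Those that fell included actin regulators: Fscn1, which bundles actin in filopodia, fell to 2169 ± 309 counts at P75, against 5201 ± 484 at P18 (-1.27, adjusted p = 8.46e-07), the actin-severing gene Cfl1 by 0.90, and the Ena/VASP family gene Evl by 0.74. Mllt11 fell by 0.77. The adhesion molecule genes parted: Cntn2 (0.84, adjusted p = 8.21e-05), Nrcam (0.65), Ncam1 (0.43) and Cntn1 (0.43) rose, Nfasc fell (-0.69, adjusted p = 0.000117) and L1cam did not pass (0.30, adjusted p = 0.144). The guidance receptor genes Robo2 (0.74) and Dcc (0.56) rose. The other genes of the list that passed had differences between -0.76 and 0.66.

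At 6 months against P75, 21 of the 42 rose (50%), 8 fell (19%) and 13 did not pass, beside 27.1% and 25.4% of all genes tested. When values were centred on mature neuron genes, 2 of the 42 rose and 24 fell. The deepest falls were those of the actin-monomer-binding thymosins. Tmsb10 fell to 2241 ± 538 counts at 6 months, against 5804 ± 658 at P75 (-1.39, adjusted p = 8.66e-07), and Tmsb4x had -1.38. At 24 months against 6 months 1 rose, Tmsb4x (0.51, adjusted p = 0.0257, but 0.0507 after quantile normalization), 11 fell (26.2%) and 30 did not pass. Among all genes tested 10.8% rose and 8.34% fell at that step. Fscn1 (-0.59) and the microtubule-associated gene Mtap1b (the table's symbol for Map1b; -0.53) were among the 11. Under the centring on mature neuron genes 3 genes of the list fell. Tmsb4x (0.63), Rtn1 (0.45), Robo2 (0.45), Nrn1 (0.41) and Nrp1 (0.39) passed as higher there.

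Of 32 genes of immature neurons and neuroblasts, 3 rose (9.38%), 13 fell (40.6%) and 16 did not pass at P75 against P18, with a median of -0.15. The shares over all genes tested were 21.7% and 18.7%. D0H4S114, the table's symbol for the neuronal regeneration related gene Nrep, fell to 5926 ± 277 counts at P75, against 13525 ± 995 at P18 (-1.19, adjusted p = 1.06e-07). The calretinin gene Calb2 (-0.89), the surface glycoprotein gene Cd24a (-0.80) and the RNA-binding protein gene Elavl3 (-0.72) were lower too. Dcdc2a, a doublecortin-domain gene, rose by 1.4 (adjusted p = 2.78e-07).

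At 6 months against P75, 4 of the 32 rose, 15 fell and 13 did not pass (0 and 25 when centred on mature neuron genes). That was 12.5% and 46.9% of the list, beside 27.1% and 25.4% of all genes tested. The transcription factor gene Neurod1 fell by 0.81 (adjusted p = 1.17e-06), and the interneuron factors Dlx1 (-0.71), Dlx2 (-0.75), Dlx5 (-0.66) and Dlx6 (-0.52) were lower. At 24 months against 6 months 2 rose (6.25%), 2 fell (6.25%) and 28 did not pass, below the 10.8% and 8.34% of all genes tested. D0H4S114 was lower again (-0.42, adjusted p = 0.00414), a call lost when centred on mature neuron genes (-0.30, adjusted p = 0.113). Ccnd2, a cyclin of dividing progenitors, fell by 0.66 (adjusted p = 0.00414) after a rise of 0.89 at 6 months against P75 (adjusted p = 4.00e-05), which did not pass under that centring (0.28, adjusted p = 0.0884).

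**Figure D4:**
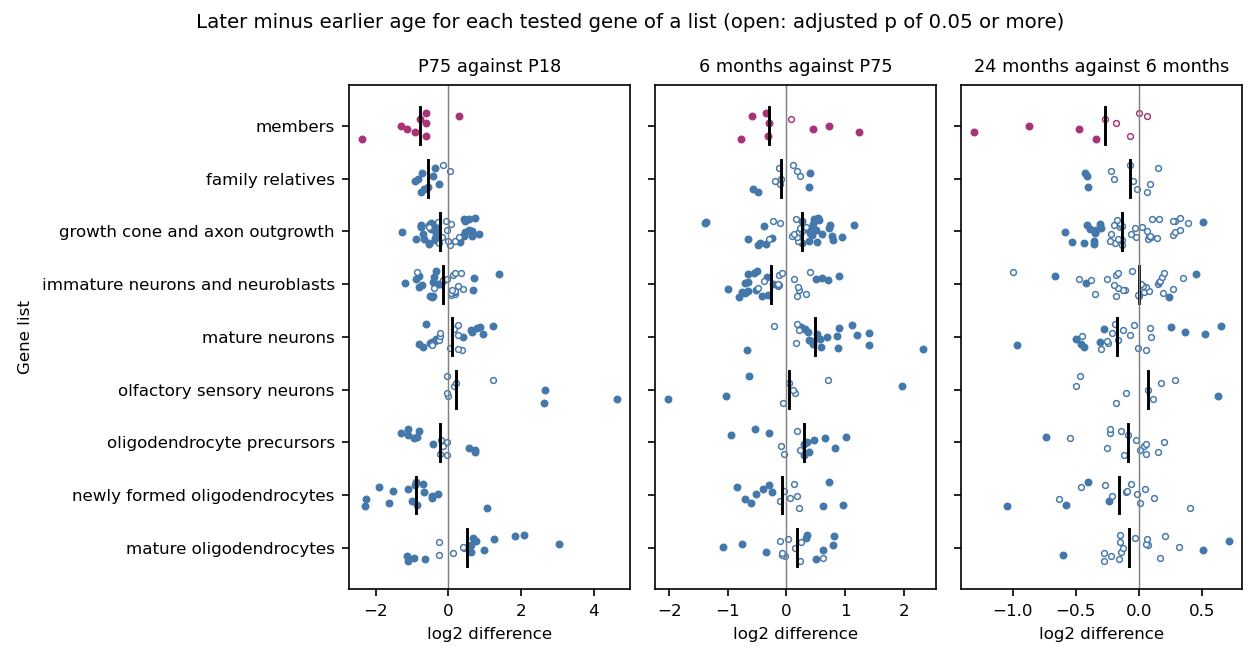
Log2 difference of each tested gene (points, filled where the adjusted p was under 0.05) in the 9 genes, their relatives and lists of growth cone, immature neuron and cell type marker genes, for each step, later minus earlier age. Black bars are list medians, which at P75 against P18 are -0.78 for the 9 genes, -0.58 for the relatives, -0.23 for growth cone genes and -0.90 for newly formed oligodendrocyte genes.

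Markers of mature neurons moved both ways at P75. Of 24, 7 rose (29.2%), 7 fell (29.2%) and 10 did not pass, with a median of 0.091. Among all genes tested 21.7% rose and 18.7% fell. Their summed share of all counts ranged over 0.970 to 1.37% in P18 samples, 1.28 to 1.46% in P75 samples, 1.46 to 1.69% in 6-month samples and 1.34 to 1.52% in 24-month samples, and 0 of the 24 were at 0 in all samples. At 6 months against P75, 19 of the neuron markers rose and 1 fell, where 27.1% of the genes tested rose and 25.4% fell. With values centred on these markers the median over all genes tested at that step was -0.61, beside 0.003 as deposited. Markers of newly formed oligodendrocytes moved with the members at P75: 15 of 16 fell, with a median of -0.90. Their summed share was 0.193 to 0.333% in P18 samples, 0.394 to 0.556% in P75 samples, 0.441 to 0.613% in 6-month samples and 0.555 to 0.722% in 24-month samples, and most of it was Bcas1, which rose. Of 15 oligodendrocyte precursor markers 3 rose, 7 fell and 5 did not pass, with a summed share of 0.0972 to 0.108% in P18 samples, 0.101 to 0.105% in P75 samples, 0.108 to 0.119% in 6-month samples and 0.1 to 0.12% in 24-month samples. Of 12 cell cycle genes 1 rose, 4 fell and 7 did not pass at P75 against P18, with a median of -0.53. At 24 months against P18, 10 of these 12 fell (83.3%), where 30.5% of the genes tested fell. The P75 medians of the other lists were 0.52 for mature oligodendrocytes, 0.39 for microglia and 0.22 for olfactory sensory neurons. They were 0.21 for astrocytes and 0.05 for endothelium and mural cells. None of these markers was at 0 in all samples, and their part in the levels of the 9 genes was not tested.

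To place each member, the 3 genes of 11623 with the smallest distance to its centred log2 values over the 12 samples were found. Distances are given as the root mean square difference in log2, and the points share their libraries. Stmn2 and Gap43 were each other's nearest gene (0.055). The next genes were Prr3 (0.078) and Cby1 (0.080) for Gap43, and Rhob (0.069) and Prr3 (0.071) for Stmn2. Marcksl1 lay nearest to Sirt2 (0.244), a deacetylase of the myelin sheath, then Kif19a (0.254) and Rassf10 (0.271), both from the list of newly formed oligodendrocyte markers. Dpysl5 lay nearest to Gatsl2 (0.109) and to Sox10 (0.118), the transcription factor of the oligodendrocyte lineage, and Sox4 lay nearest to Dpysl5 (0.227) and Sox10 (0.238). The mean count of Sox10 was 2645 ± 131 in P18 samples, 1162 ± 239.8 in P75 samples, 1464 ± 219 in 6-month samples and 1080.5 ± 131 in 24-month samples (SD, n = 3).

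Dpysl3 lay nearest to Hdac4 (0.272), then Sox6 (0.288), an oligodendrocyte precursor factor, and Ccnd2 (0.290). Sox11 lay nearest to Jazf1 (0.107), Camk4 (0.114), a neuronal kinase gene, and Frmd4a (0.119), from the list of newly formed oligodendrocyte markers. Dcx lay nearest to Sike1 (0.107), Fntb (0.130) and Snx4 (0.131), and Stmn1 to the translation factor gene Eif3h (0.069), Fbxw7 (0.085) and Mccc2 (0.086). By this distance, which counts the depth of a change as well as its shape, the 9 genes did not lie together. Gap43 and Stmn2 were near each other, and Sox4 and Dpysl5 had Sox10 among their 3 nearest genes. Marcksl1 and Sox11 each had markers of newly formed oligodendrocytes there, and Sox11 also had Camk4. The Pearson correlation of Marcksl1, which leaves depth aside, was 0.985 with Gap43 and 0.983 with Stmn2. It was 0.984 with Sirt2 and 0.985 with Kif19a, and lowest among the members with Dpysl3 (0.305). The label of growth cone and immature neuron genes describes where they are known from, and these data on a mixed fraction do not assign their RNA to a cell type.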

How the data were processed

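The signal values deposited by the authors are gene read counts over a size factor for each sample, to 2 decimals. According to the submitters' processing notes the tools were TopHat, HTSeq and DESeq with build mm9, no versions given. In all 12 columns 100% of values were whole multiples of a step (tolerance 0.006), which gave the reads and depth. In 3 columns the step lay within 1% of 1. Annotation, strand setting, RNA extraction, library construction and sequencing batch are not given in the sources used here, so no within-batch value exists.

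Genes reaching 10 in at least 3 samples were tested with limma 3.58.1 (R 4.3.3; mean-variance trend, two-sided) on log2(value + 1), all 12 samples in 4 age groups. The added 1 understates changes of scarce genes such as Dpysl3. Alternatives were pseudocounts of 0.5 and 4, no filter, a filter of 50, 3 scalings, edgeR 4.0.16 and DESeq2 1.42.0 on recovered reads, the compared ages alone, a replicate block and each sample left out. The main limma fit and the edgeR and DESeq2 fits were tested on simulated data with changes at P75 against P18. The other alternatives were not simulated. Members, lists and tests were chosen with earlier results of these data known. Named genes were the members, their relatives, from the 2 neuronal lists the 5 genes of lowest adjusted p at P75 and 2 at each later step, the 3 genes of highest mean in each marker list, and the 3 nearest genes of each member (mean of at least 50). Nrcam, Ncam1, Cntn1, Nfasc, L1cam, Robo2, Dcc, Rtn1, Nrn1, Nrp1, Dlx1, Dlx2, Dlx5 and Dlx6 were named after their values were seen. Map1b and Nrep were found by RefSeq synonyms. Exon lengths, the Sox4 overlap and promoters are from GRCm38, not mm9.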

Additional observations from a re-analysis of the deposited data

How the results depend on the processing

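The fall of 8 members at P75 against P18 and at 24 months against P18 kept its direction and call for each gene in all 23 alternatives. The count of members higher at P75 was 0 with a pseudocount of 4, no filter, quantile normalization, centring on mature neuron genes, Mbp left out of the scaling, the compared ages alone or the replicate block (adjusted p of Stmn1 0.0622), and 0 to 1 with a sample left out. The pseudocount of 4 gave an adjusted p of 0.0504, so that call rests on the threshold. Centring on mature neuron genes shifted every difference. It gave 2112 genes higher at P75 against P18 and 767 higher and 10147 lower at 6 months against P75, with 1 member higher. It gave 335 genes and 2 members lower at 24 months against 6 months, and 2234 higher and 8956 lower at 24 months against P18. At 6 months against P75 it turned Dpysl5 to -0.16 and Dcx to -0.53, and at 24 months against 6 months Gap43 to 0.05. In 6 months against P75 higher genes were 51.6% of those called, but 7.03% with that centring, and in the other steps 42.1%, 85.7% and 20% (53.7%, 56.5% and 51.3% as deposited). Quantile normalization gave 42.6% and Mbp left out of the scaling 44.9% for 24 months against P18 and 24 months against 6 months. Differences near 0 changed sign in both later steps: with a sample left out Dcx at 6 months against P75 ranged over -0.001 to 0.17, and at 24 months against 6 months Stmn1 over -0.038 to 0.147 and Stmn2 over -0.013 to 0.029. Stmn2 there had -0.029 after quantile normalization and -0.037 with Mbp left out of the scaling. Gap43, Stmn1 and Stmn2 did not pass at 24 months against 6 months in any alternative, and Dcx at 6 months against P75 passed under the neuron centring (adjusted p = 0.00715). Genes called at 24 months against 6 months numbered 2876, and 1244 to 3963 with a sample left out (704 to 2229 higher, 492 to 1734 lower, 2 to 4 members lower). The share of the 9 genes was 0.347%, 0.269%, 0.194% and 0.189% at the successive ages without Mbp in the total, and 26.2%, 19.0%, 11.6% and 12.4% of the mature neuron genes. The exact ratio tests were repeated without each sample, an alternative added after seeing the data. Adjusted p ranged from 0.0288 to 0.126 for Gap43 to Basp1 and from 0.00922 to 0.0894 for Dcx to Dclk1. Stmn1 at 24 months against P18 passed after quantile normalization (-0.39), neuron centring (-0.79), Mbp left out (-0.28) and DESeq2 (-0.21). Of 18 same-numbered pairs of samples, 3 had deviations correlated over 0.1 (-0.185 to 0.165). Pairs of different number and age had -0.149 to 0.189, and 6 of 12 samples correlated best with their own number. Without a reference for unpaired samples, this check cannot exclude that the numbers pair the samples. With the replicate block 5871, 7656, 2583 and 9186 genes were called at the 4 comparisons in the order above. Dpysl3, with 24.3 to 91.8 counts in a sample, is the member whose precision depth limits most.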
